A study of Homo sapiens with 6 samples.

Results

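The retinoic acid receptors RARA, RARB and RARG, the retinoid X receptors RXRA, RXRB and RXRG, the carrier CRABP2 and the retinoid-responsive genes RARRES1 and RARRES3 were followed in breast cancer cells before and after HOXA5 was switched on. All probe sets that the array's gene table assigns to one of these 9 genes were taken, which gave 23 of 22283 probe sets. RARRES3 was matched through its current symbol PLAAT4. Of the 23 probe sets, 18 lay above a floor of 12.7 intensity units on at least 2 of the 6 arrays and were tested, and each of the 9 genes had at least 1 of them. The other 5, namely 2 for RARB, 1 for RXRB and 2 for RARRES1, did not reach that filter.

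Retinoic acid is made inside cells from vitamin A and carried to the nucleus by CRABP2, a small binding protein. There it binds RARA, RARB or RARG, nuclear receptors that sit on DNA as pairs with an RXR, holding corepressors without the ligand and coactivators with it. The paired receptors recognise repeated hexamers in the promoters of target genes, of which RARB itself is the classical example. In breast cancer RARB is known as a growth-restraining receptor that is often silenced, and HOXA5 is known as a gene that retinoic acid raises and that has been placed downstream of RARB. The arrays here ask the opposite question, whether genes of the retinoid receptors changed when HOXA5 was induced.

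The cells were Hs578T, an established human breast cancer line with mesenchymal features, carrying an inducible HOXA5 gene. Cells were plated on a 10 cm dish 24 h ahead of induction, and RNA was collected at 0 h (uninduced), 6 h and 9 h (both induced) in each of 2 experiments. Each time therefore had 2 Affymetrix arrays, one per experiment, and all 3 groups share the line and its construct. The sources used here give neither the inducing agent nor whether the line is a single clone. The level of HOXA5 was not analysed here. There were 0 uninduced arrays at 6 h or 9 h, so time in culture and induction cannot be told apart. The labels speak of 2 RNA batches but disagree on the 6 h array of experiment 2, whose title gives experiment 2 and whose lot line gives experiment 1. The title was followed. Nothing says that the cultures were independent, so p-values measure the spread between these 6 arrays.

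The deposited median intensity ran from 18.7 (6 h, experiment 1) to 95.8 (0 h, experiment 1), and values below are quantile normalised, so that every change is relative to the whole array. Without scaling, the median log2 change of all tested probe sets would be -1.34 for 6 h and -0.56 for 9 h. The 3' to 5' signal ratio of ACTB, a sign of RNA quality, was 1.82 on the 9 h array of experiment 1. It was between 0.918 and 1.09 on the other 5. That of GAPDH was 1.31 on the same array and 0.863 to 1.12 on the other 5. Of 10 mesenchymal markers 8 were above the floor on all arrays, and their summed level was 15789 to 16605 at 0 h, 14492 to 14563 at 6 h and 14232 to 14284 at 9 h. Of 10 luminal markers 5 were above it on all arrays, namely KRT8, KRT18 (781 to 3510), ESR1, GATA3 (114 to 193) and ERBB3, while EPCAM, KRT19 and CLDN4 were at or below it on all 6. The summed level of the 10 luminal markers was 1162 to 3921, 1119 to 2210 and 1254 to 2344 at 0, 6 and 9 h, and that of 6 leukocyte and endothelial markers 98.0 to 129, 140 to 145 and 97.8 to 110. The part of brightness, RNA quality and these markers in the results below was not tested.

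The element through which RARB answers to its own ligand is shown because it is the link between retinoic acid and this receptor family. In the RefSeq promoter windows of build GRCh38.p14, which run from 250 bases before a transcription start to 50 after it, 8 of the 9 genes had a window and 15 windows were searched on both strands. The motif was a direct repeat of the half-site AGGTCA, or of its variants AGTTCA and also GGTTCA and finally GGGTCA, mixed in any way, with a spacer of 1, 2 or 5 bases. A single match was found, a repeat with a 5-base spacer in 1 of the 4 RARB windows, 53 to 37 bases before the start, at chr3:25428210-25428226 on the plus strand. It is printed with its surroundings, chr3:25428150-25428262, up to the last base before the start, with the 2 half-sites of the repeat in capitals. This window holds 3 half-sites, and a GGGTCA before the repeat is left in lower case.

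RARB promoter: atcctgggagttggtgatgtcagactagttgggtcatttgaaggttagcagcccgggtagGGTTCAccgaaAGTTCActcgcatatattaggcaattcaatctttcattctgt

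Repeats with a 5-base spacer were present in 0.0883% of all 35116 windows, those with 2 bases in 0.0399% and those with 1 base in 0.131%. A single half-site was far more common, in 38.6% of windows, and the HOX core letters TAAT stood in 50.2%. The RARG, CRABP2 and RARRES1 windows held no TAAT and no repeat, which says only that these letters are not in those stretches. A match is a description of the sequence and not a measured binding site.

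Across the 18 tested probe sets no change between times passed the test. By limma, with p-values adjusted over all 18360 tested probe sets, 0 of 18 were called for 6 h against 0 h, 9 h against 0 h, 9 h against 6 h or both induced times against 0 h, and the background over all probe sets was 0% in each. At an unadjusted p under 0.05 there were 0, 1, 3 and 1 of them, beside 875, 1360, 968 and 1136 of all probe sets. A fit that also held the experiment again called 0 of 18 in each comparison, against 0% of all probe sets at 6 h, 0.359% at 9 h, 0% for 9 h against 6 h and 0.163% for both times together. The median log2 change of the 18 was -0.13 at 6 h and -0.091 at 9 h, and that of all probe sets -0.0033 and -0.020.

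The arrays of 2 times can still be set side by side without a test. At 6 h 2 of the 18 probe sets lay above both 0 h arrays on both arrays and 4 lay below, which is 11.1% and 22.2% against 16.1% and 16.2% of all tested probe sets. At 9 h 1 lay above and 2 below, 5.56% and 11.1% against 18.3% and 19.1%. All 4 induced arrays lay above both 0 h arrays for 0 of the 18 and below them for 2, with backgrounds of 6.44% and 7.8%. The same 0 and 2 were found when each induced array was set against the 0 h array of its own experiment, with backgrounds of 12.5% and 14.5%. With 18 probe sets a single one is 5.56%, so these shares rest on few members. The 2 that lay lower at both times were RARG 204189_at and 217178_at. The second was above the floor only at 0 h, so the filter fixed its direction, and without it the lower counts are 3 of 17 at 6 h and 1 of 17 in each of the other 3 comparisons just given.

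**Figure D1:**
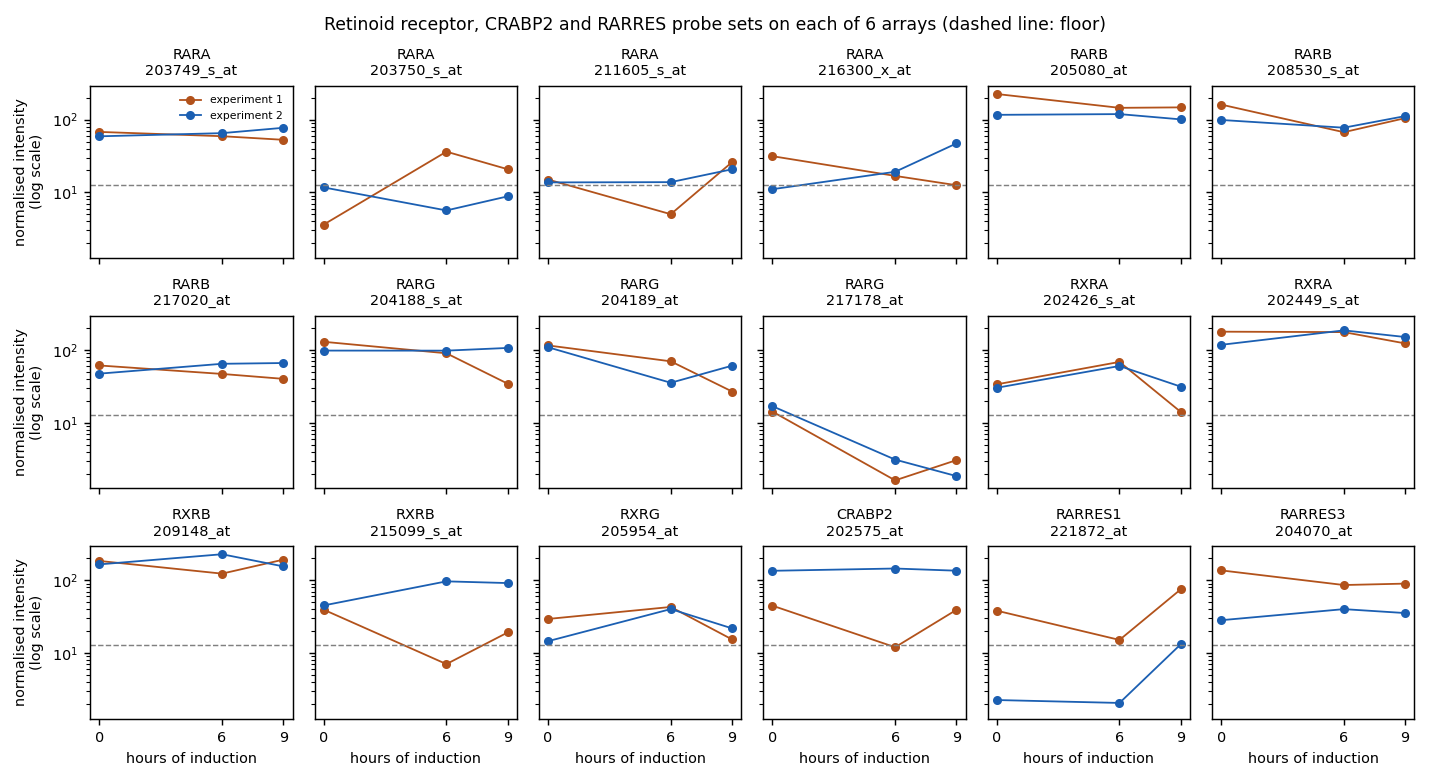
Quantile-normalised intensity (log axis) of each of the 18 tested probe sets on the 6 arrays at 0, 6 and 9 h of induction, with one line per experiment and the floor of 12.7 as a dashed line. RARG 204189_at is lower on all 4 induced arrays than on both 0 h arrays, and CRABP2 is higher in experiment 2 than in experiment 1 at every time.

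RARG, the receptor best known from skin and cartilage, had the largest change from 0 h of the 18 probe sets. Its probe set 204189_at read 115 and 109 at 0 h (experiment 1 first, as in all pairs of values that follow). It read 69.8 and 35.4 at 6 h, then 26.9 and 60.8 at 9 h. All 4 induced arrays were below both 0 h arrays. The lowest value was at 6 h in experiment 2 and at 9 h in experiment 1. The 9 h array of experiment 1 is the one with the ACTB ratio of 1.82. The log2 change was -1.17 ± 0.56 (standard error, n = 2 arrays per group) at 6 h, a level 2.25-fold lower, and -1.47 ± 0.56 at 9 h, 2.77-fold lower. The limma adjusted p was 0.969 and 0.650 (0.535 and 0.267 once the experiment entered the fit), so neither passed. Dropping the 9 h array of experiment 1 gave a 9 h change of -0.88, dropping its counterpart in experiment 2 gave -2.06, and dropping the 6 h array of experiment 2 gave a 6 h change of -0.68.

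The other RARG probe sets did not repeat this pattern in full. Probe set 204188_s_at read 129 and 98.0 at 0 h. The 6 h arrays gave 90.0 and 97.8, the 9 h arrays 34.4 and 107. Both 6 h arrays were below both 0 h arrays, by -0.52 in experiment 1 and -0.0027 in experiment 2. The lowest value was on the 9 h array of experiment 1, the one with the ACTB ratio of 1.82, and the 9 h array of experiment 2 lay above its own 0 h array. Its log2 change at 9 h was -0.90 ± 0.57 (adjusted p = 0.787). Probe set 217178_at was just above the floor at 0 h, at 14.2 and 16.9, and below it on all 4 induced arrays, so that it was at least 1.22-fold lower at both times. It passed the filter only through its 0 h arrays, which fixes that direction. With the floor at the 10th percentile its log2 change was -1.97 at 6 h and at 9 h. That is larger than the change of 204189_at, so the ranking of these 2 depends on the floor. The 2 brighter RARG probe sets correlated at 0.75 over the 6 arrays, which share their brightness and batch.

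RARB, the ligand-inducible receptor with a promoter stretch printed above, was present on 3 probe sets and below the floor on all arrays with the other 2. Which transcription start the 3 probe sets report was not analysed here. Probe set 205080_at read 225 and 116 at 0 h. After induction it read 145 and 119 (6 h) or 147 and 101 (9 h). The 0 h array of experiment 1 stood above the rest, and the times overlapped. Its log2 change was -0.30 ± 0.43 at 6 h and -0.41 ± 0.43 at 9 h (adjusted p = 0.973 and 0.878).

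Probe set 208530_s_at of RARB read 161 and 98.9 at 0 h. It then read 67.1 and 77.4 (6 h), followed by 105 and 112 (9 h). Both 6 h arrays were below both 0 h arrays, by a log2 change of -0.81 ± 0.40 (adjusted p = 0.969), and both 9 h arrays were above both 6 h arrays. Probe set 217020_at read 61.2 and 47.3, 46.8 and 64.6, and 40.1 and 66.2 at the 3 times, lower after induction in experiment 1 and higher in experiment 2. RARB levels thus stayed well above the floor on 3 probe sets, and none of these rose at 6 h and 9 h in both experiments.

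RARA, the widely expressed receptor, had mean changes near 0 on its brightest probe set, 203749_s_at, from opposite moves in the experiments. The 0 h arrays gave 67.8 and 59.0, the 6 h arrays 59.1 and 65.2, the 9 h arrays 52.8 and 77.2, with log2 changes of -0.026 ± 0.42 and 0.014 ± 0.42. Within experiment 1 they were -0.20 and -0.36, within experiment 2 0.14 and 0.39. The other RARA probe sets were dim. Probe set 211605_s_at read 15.0 and 13.7 (0 h), 5.0 and 13.8 (6 h), then 26.1 and 20.8 (9 h), so that both 9 h arrays exceeded the other 4 (log2 change from 0 h 0.70 ± 0.32, adjusted p = 0.689). Probe set 203750_s_at was above the floor only on the 6 h and 9 h arrays of experiment 1, at 36.3 and 20.8. It passed the filter only through these arrays. That fixes the direction of its change from 0 h and of its difference between the experiments. Probe set 216300_x_at read 31.4 and 11.1, 16.9 and 19.2, and 12.6 and 47.1. It fell from 0 h to 9 h in experiment 1 and climbed in experiment 2, with 11.1 and 12.6 below the floor. Of the 6 pairs of RARA probe sets, 203749_s_at and 216300_x_at correlated at 0.94 over the 6 arrays, both lower after induction in experiment 1 and higher in experiment 2. The other pairs lay between -0.54 and 0.11.

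**Figure D2:**
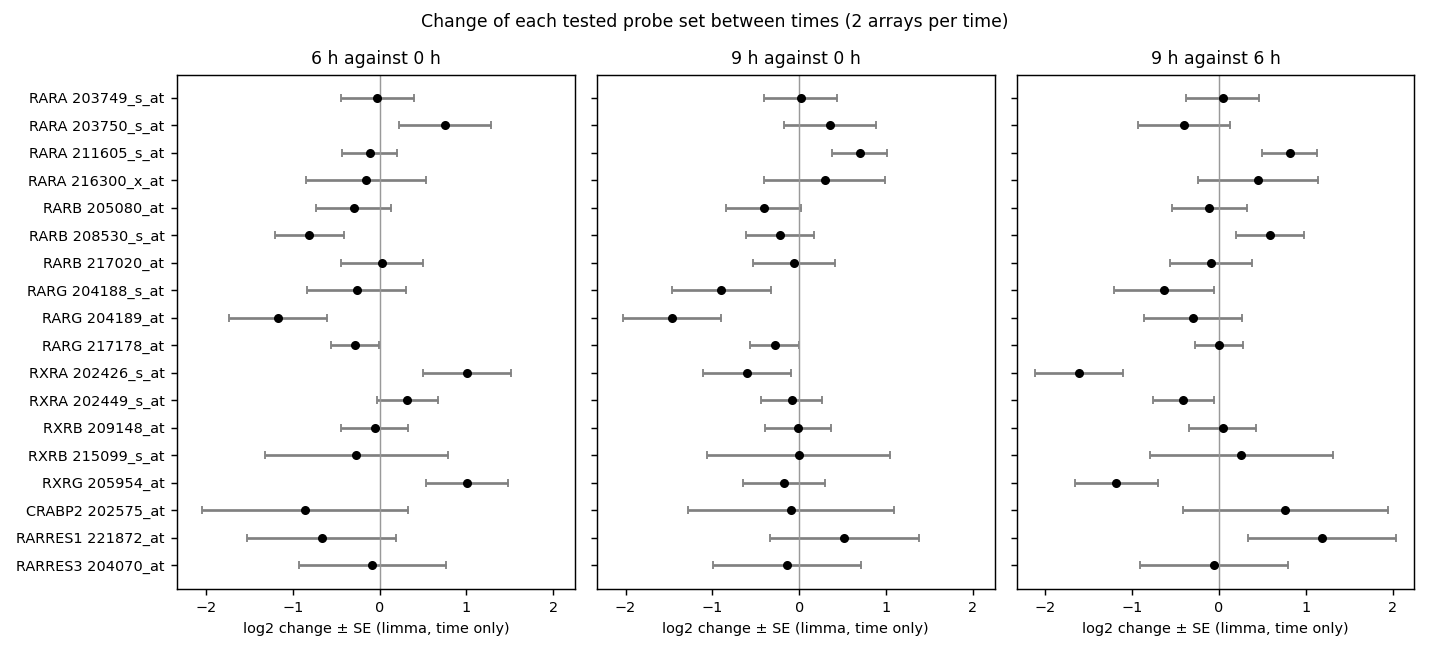
Log2 change of each tested probe set with its standard error from limma for 6 h against 0 h, 9 h against 0 h and 9 h against 6 h, 2 arrays per time. The bars of RARG 204189_at stay left of 0 in the first 2 panels, those of RXRA 202426_s_at and RXRG stay right of 0 in the first and left of it in the last, and no probe set passed the adjusted test.

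On the dimmer RXRA probe set and on that of RXRG the quantile-normalised values were highest at 6 h, with no change past the test. RXRs are the shared partners of the retinoic acid receptors and of other nuclear receptors. RXRA probe set 202426_s_at read 33.7 and 30.2 (0 h), 68.5 and 60.2 (6 h), then 14.1 and 31.3 (9 h). Both 6 h arrays exceeded the other 4, and the 14.1 came from the array with the ACTB ratio of 1.82. The log2 change was 1.01 ± 0.51 at 6 h, 2.01-fold (adjusted p = 0.969), and -1.61 ± 0.51 from 6 h to 9 h (unadjusted p = 0.015, adjusted p = 0.932). In unscaled values the 6 h change was -0.36, which is above the median shift of -1.34. With the floor at the 40th percentile the change from 6 h to 9 h was -1.05.

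The brighter RXRA probe set, 202449_s_at, read 178 and 118 (0 h), 176 and 186 (6 h), then 123 and 151 (9 h). Its 6 h arrays lay above its 9 h arrays but not above both 0 h arrays, with a log2 change of 0.32 ± 0.35 at 6 h. RXRG, the most tissue-restricted of the RXRs, read 29.4 and 14.6 (0 h), 43.0 and 40.2 (6 h), then 15.4 and 21.9 (9 h) on its only probe set. Its 6 h arrays stood above all others, by a log2 change of 1.01 ± 0.47 from 0 h (adjusted p = 0.969) and 2.27-fold above 9 h (adjusted p = 0.932), and the 6 h change was -0.24 in unscaled values. Leaving out the 0 h array of experiment 1 moved the 6 h change to 1.51. Leaving out the one of experiment 2 moved it to 0.50. The 14.6 and 15.4 were close to the floor of 12.7. With the floor at the 40th percentile the RXRG change was 0.43 at 6 h and -0.43 from 6 h to 9 h.

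RXRB had mean changes near 0 on its bright probe set, where the experiments went opposite ways at 6 h, and split by experiment on the dimmer one. Probe set 209148_at read 184 and 166 (0 h), 123 and 228 (6 h), then 192 and 155 (9 h), with log2 changes of -0.058 ± 0.38 and -0.016 ± 0.38. At 6 h it was -0.58 in experiment 1 and 0.46 in experiment 2. Probe set 215099_s_at read 39.5, 7.1 and 19.2 at 0, 6 and 9 h in experiment 1 and 45.2, 96.8 and 91.6 in experiment 2. It was lower on both induced arrays of experiment 1 and higher on both of experiment 2. Its 6 h value of experiment 1 was below the floor. The third RXRB probe set was above the floor on 1 array.

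CRABP2, which hands retinoic acid to the receptors, was steady in experiment 2 and lower in experiment 1. Its intensities were 44.8, 12.1 and 39.3 at 0, 6 and 9 h in experiment 1, and 135, 145 and 136 in experiment 2. The lowest value came from the 6 h array of experiment 1, the dimmest of the 6 arrays, where it was below the floor. The log2 change was -0.86 ± 1.18 at 6 h and -0.092 ± 1.18 at 9 h (adjusted p = 0.973 and 0.996), and the 6 h change became 0.90 when the 6 h array of experiment 1 was dropped and -2.61 when its counterpart was.

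RARRES1, a membrane protein first isolated as a retinoid-induced gene, was highest on the 9 h array of experiment 1. Probe set 221872_at read 38.2, 15.2 and 75.4 in experiment 1 and 2.3, 2.1 and 13.3 in experiment 2. The 2.3 and 2.1 were below the floor. The other 2 probe sets, not tested, were above the floor only on the 9 h array of experiment 1, at 23.5 and 61.4. All 3 thus had their highest value there, on the array with the ACTB ratio of 1.82. The log2 change of 221872_at at 9 h was 0.52 ± 0.86 (adjusted p = 0.933). With each array left out it ran from -0.73, without that array, to 1.77, without the 9 h array of experiment 2. RARRES3, a phospholipase-related growth suppressor also known from retinoid treatment, read 137, 86.1 and 90.1 in experiment 1 and 28.3, 40.2 and 35.5 in experiment 2. It was lower on the induced arrays of experiment 1 and higher on those of experiment 2, with log2 changes of -0.082 ± 0.85 and -0.14 ± 0.85. Dropping the 0 h array of experiment 1 turned them to 1.06 and 1.00, dropping its counterpart gave -1.22 and -1.28, and the lot line as a block gave -0.99 at 6 h.

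The 2 experiments were also set against each other, in comparisons added after the values were seen. With time as a term, limma called 1 of 18 probe sets between experiment 2 and experiment 1, against 2.48% of all 18360. At an unadjusted p under 0.05 there were 5 of 18, beside 19.6% of all. The called one was CRABP2, 4.91-fold higher in experiment 2, a log2 difference of 2.30 ± 0.43 (n = 3 arrays per experiment, adjusted p = 0.0299). With any 1 array left out the call ended, at an adjusted p of 0.135 to 0.367 and a difference of 1.69 to 2.65. It also ended with the lot line as the experiment (1.69, adjusted p = 0.753), in unscaled values, with no filter on low values and without the trend in eBayes.

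RARRES3 was 2.97-fold higher in experiment 1 (log2 difference -1.57 ± 0.38, adjusted p = 0.0611), RARRES1 2.73-fold (-1.45 ± 0.45, 0.117) and RARB 205080_at 1.51-fold (-0.59 ± 0.26, 0.240). RXRB 215099_s_at was 3.46-fold higher in experiment 2 (1.79 ± 0.53, 0.100). None of these 4 passed by limma. The RARRES1 readings at 0 h and 6 h in experiment 2 were below the floor and were set to it. The size of the RARRES1 difference depended on that floor. It was -2.57 with the floor at the 10th percentile and -0.53 at the 40th. The 3 arrays of experiment 2 lay above those of experiment 1 for 2 of the 18 probe sets and below for 3, with backgrounds of 9.8% and 9.31%.

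**Figure D3:**
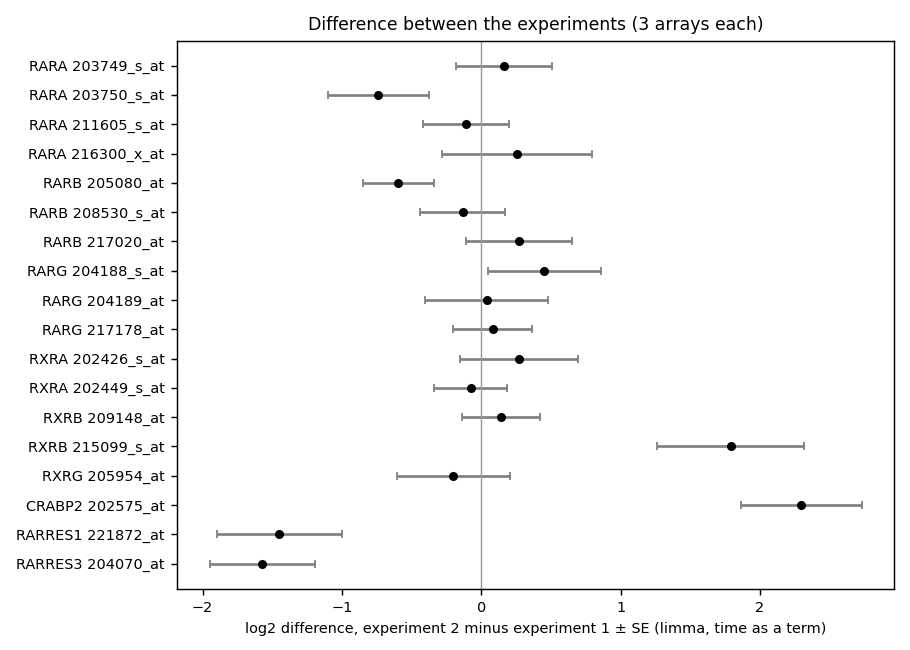
Log2 difference of each tested probe set between experiment 2 and experiment 1 with its standard error, from limma with time as a term (3 arrays per experiment). CRABP2 and RXRB 215099_s_at lie to the right at 2.30 and 1.79, RARRES1 and RARRES3 to the left at -1.45 and -1.57.

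The change after induction was also compared between the experiments. The mean of 6 h and 9 h against 0 h was -1.41 in experiment 1 and -1.23 in experiment 2 for RARG 204189_at. It was -1.22 and 0.059 for the other bright RARG probe set, and -0.94 and -0.088 for RARB 208530_s_at. The change was more positive in experiment 2 for 16 of the 18 probe sets, 88.9%, and for 50.6% of all tested. The exceptions, RARA 203750_s_at and RARG 217178_at, were each above the floor on only 2 arrays. The 18 probe sets stand for 9 genes, so they are not independent of each other. The median difference was 0.71 for the 18 and 0.012 for all. These values share 1 array per experiment as their 0 h base. By limma 0 of 18 passed for this difference (0% of all probe sets, with 1 of 18 and 667 of 18360 at an unadjusted p under 0.05).

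**Figure D4:**
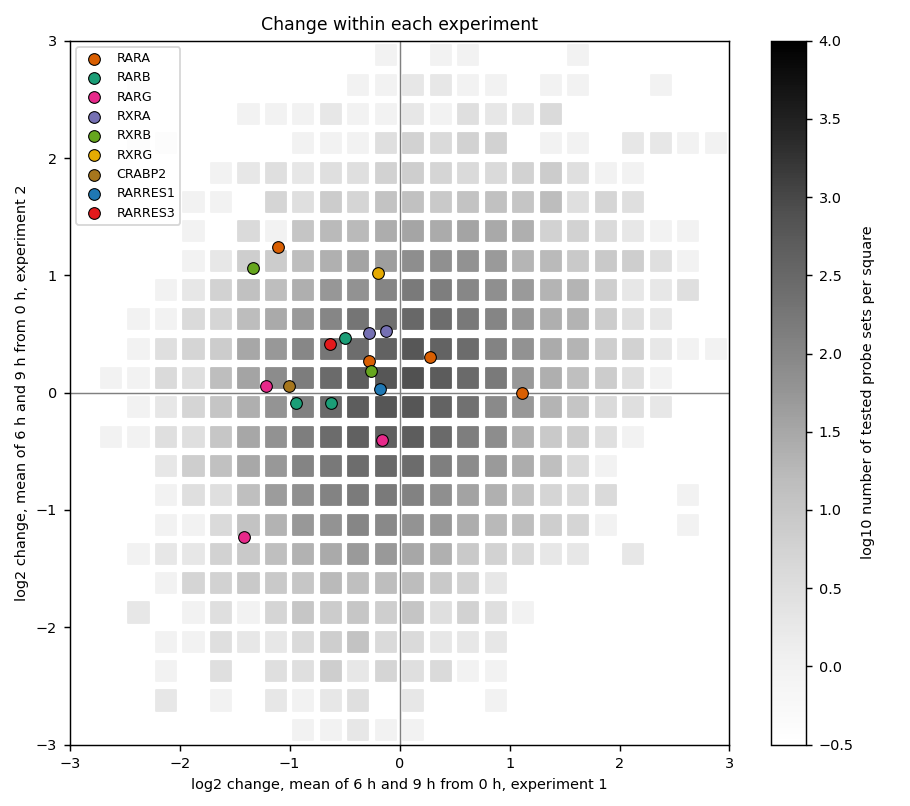
Log2 change of the mean of the 6 h and 9 h arrays from the 0 h array in experiment 1 (x axis) and experiment 2 (y axis), with the 18 tested probe sets as coloured points by gene and the number of all tested probe sets per square in grey. RARG 204189_at, at -1.41 and -1.23, is the point at the lower left, and most other points lie left of 0 on the x axis.

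The wider retinoid pathway was described from 5 lists with 90 different genes, of which 59 were tested, 1 probe set per gene. By limma 0 of the 59 passed in any of the 4 comparisons, with the experiment in the fit or left out of it. The median log2 change of the induced arrays was -0.069 for 11 genes of retinoid uptake, storage and synthesis, -0.38 for 2 genes of retinoic acid binding and clearance, and 0.013 for 16 coactivators and corepressors. It was 0.19 for 10 partner receptors of RXR and 0.11 for 20 genes known to respond to retinoic acid, beside -0.0025 for all 10444 genes. In both experiments and at both times 12 of the 59 were higher and 9 lower than at 0 h, 20.3% and 15.3%, against 13.8% and 14.3% of all genes.

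Among the retinoic acid responsive genes, 5 of 20 were higher and 4 lower in both experiments at both times. That is 25% and 20%, against 13.8% and 14.3% of all genes. IRF1, a transcription factor of the interferon response, read 142 and 147 (0 h), 215 and 260 (6 h), then 506 and 276 (9 h). Every induced array was above both 0 h arrays, a log2 change of 1.04 ± 0.31 over both times (adjusted p = 0.773). The 506 came from the 9 h array of experiment 1, the one with the ACTB ratio of 1.82. BHLHE40, a helix-loop-helix repressor, had a log2 change of 0.89 ± 0.30, the homeobox cofactor MEIS1 0.82 ± 0.37 and the adhesion molecule ICAM1 0.74 ± 0.39 (1 of its 3 probe sets had the opposite sign), and none passed. The 4 lower ones, named after their values were seen, were the membrane receptor GPRC5A (-0.71 ± 0.81), the growth factor binding protein IGFBP6 (-0.44 ± 0.26), the transglutaminase TGM2 (-0.40 ± 0.90) and the homeobox gene MEIS2 (-0.34 ± 0.43), and none passed. IRF1, BHLHE40 and ICAM1 also answer to other signals than retinoic acid.

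DHRS3, a retinaldehyde reductase that turns retinal back to retinol, read 322 and 168 (0 h), 202 and 148 (6 h), then 105 and 118 (9 h). It was the 1 gene of 11 in its list that was lower at both times in both experiments, and 0 were higher there, with a log2 change of -0.75 ± 0.35 over both times and -1.07 at 9 h (limma adjusted p = 0.814 and 0.649). Of the cofactors 4 of 16 were higher and 4 lower in this way. CREBBP, an acetyltransferase that coactivates the receptors, had 0.65 ± 0.30 (its other probe set had the opposite sign), and TRIM24, a receptor-binding cofactor, 0.49 ± 0.30. TBL1X, a corepressor subunit, had -1.35 ± 1.08 and the arginine methyltransferase PRMT1 -0.56 ± 0.20. Of the RXR partners 3 of 10 were higher and 0 lower. They were PPARD, the fatty acid receptor (0.57 ± 0.27), the orphan receptor NR4A2 (0.53 ± 0.42) and the thyroid hormone receptor THRA (0.23 ± 0.39). For NR4A2 1 of 3 probe sets had the opposite sign. The shares higher and lower were 0% and 9.09% for the DHRS3 list and 25% each for the cofactors. For the RXR partners they were 30% and 0%, beside 13.8% and 14.3% of all genes.

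**Figure D5:**
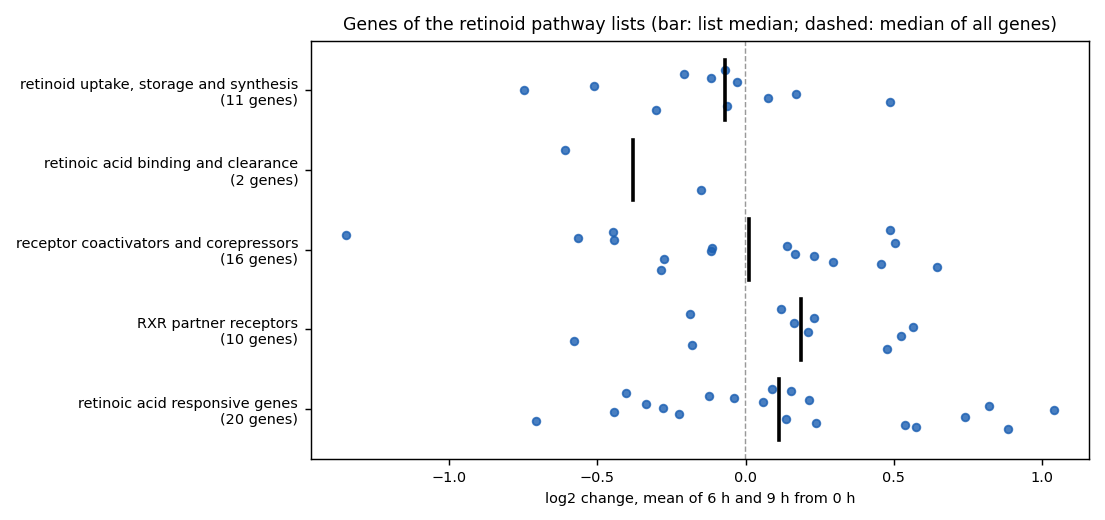
Log2 change of the mean of the 6 h and 9 h arrays from 0 h for each tested gene of the 5 retinoid pathway lists, with the list median as a bar and the median of all genes as a dashed line. Genes of every list with more than 2 members lie on both sides of 0, from TBL1X at -1.35 to IRF1 at 1.04.

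By Pearson correlation, the genes whose pattern over the 6 arrays was most like RARG 204189_at were NPPA, DLK1 and ITGA6. NPPA is a natriuretic peptide precursor, DLK1 a Delta-like membrane protein and ITGA6 a laminin-binding integrin subunit. Their Pearson correlations with RARG 204189_at were 0.98, 0.98 and 0.97 over 6 arrays. Among the most opposite were the mitochondrial helicase TWNK (-0.97) and the zinc finger gene ZNF304 (-0.96). Among the 8055 genes above the floor on all arrays, 46 had a correlation over 0.9 and 38 one under -0.9, so the named genes are the ends of a long list. ITGA6 read 299 and 342 (0 h), 242 and 199 (6 h), then 158 and 251 (9 h), and ZNF304 45.4 and 38.7, 70.7 and 97.2, then 108 and 76.4.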

How the data were processed

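The values deposited by the authors are 1 linear intensity per probe set and array. The sources used here do not say how they were made, and the trimmed means (2% trim) of the arrays differed 5.49-fold. For the analysis, intensities were quantile normalised, then set to a floor at their 25th percentile (12.7; 3.67 on the log2 scale), log2 transformed and fitted with limma 3.58.1 in R 4.3.3 (time as the group, eBayes with a trend, 3 residual degrees of freedom). The 68 controls were left out. Two-sided p-values were adjusted by Benjamini-Hochberg over 18360 probe sets at 0.05.

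Per the labels there were 2 RNA batches. Arrays were paired by the experiment in their titles, although the lot line of the 6 h array of experiment 2 names experiment 1. Deviations from group means correlated between arrays of one experiment at 0.247, 0.336 and 0.391. Adding the experiment to the fit left 2 residual degrees of freedom.

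Genes were named through the platform table and Entrez numbers. For lists the brightest probe set stood for a gene. Described were all probe sets of the 9 genes; per list up to 4 genes of 1 direction at both times in both experiments with the largest change, and any gene called; and the 3 genes most and least correlated with the probe set of largest change, of which 1 is not reported here. Of 90 listed genes 23 were not analysed here and 8 were not tested. Members and lists were chosen with earlier results of these data known. Promoter sequences are from RefSeq.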

Additional observations from a re-analysis of the deposited data

Results flagged for a closer look

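For 7 of the 18 tested probe sets both induced arrays moved one way from 0 h in experiment 1 and the other way in experiment 2, as did 15.1% of all tested probe sets. In each of the 7 the mean change was lower in experiment 1 than in experiment 2, as in 52.2% of the 2780 such probe sets on the whole array. The log2 difference of the change, experiment 2 minus experiment 1, was 2.39 for RXRB 215099_s_at and 2.34 for RARA 216300_x_at. It was 1.06 for CRABP2, 1.05 for RARRES3, 0.97 for RARB 217020_at, 0.79 for RXRA 202449_s_at and 0.54 for RARA 203749_s_at. Only the sign of each change was counted. CRABP2 was nearly steady in experiment 2, with log2 changes of 0.10 at 6 h and 0.0044 at 9 h. Readings below the floor, set to it, entered RXRB 215099_s_at and CRABP2 at 6 h in experiment 1 (7.1 and 12.1). They entered RARA 216300_x_at at 0 h in experiment 2 (11.1) and at 9 h in experiment 1 (12.6). None of the 7 differences passed by limma (adjusted p = 0.998 each, unadjusted p = 0.024 for RXRB and 0.053 for RARA 216300_x_at).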

How the results depend on the processing

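All 4 comparisons of times kept 0 called members and 0 called pathway genes under each alternative run: scaling by trimmed mean, unscaled values, floors at the 10th and 40th percentile, a pseudocount in place of the floor, no filter, all 6 arrays above the floor, the replicate block, the lot line as a block, no trend, and each array left out. Thus the replicate block changed no call. Between experiments 1 member was called, 2 with the floor at the 40th percentile and 3 with the pseudocount (RARRES3, and with the pseudocount RARRES1, besides CRABP2). It was 0 in unscaled values, with no filter, with the lot line as the experiment, without the trend, and 0 to 0 with each array left out. With all 6 arrays above the floor CRABP2 was not tested and RARRES3 was called (adjusted p = 0.011). Values over their standard error that changed sign in unscaled values were those of RXRA 202426_s_at (-0.36) and RXRG (-0.24) at 6 h, RARG 204188_s_at (0.17) and RXRA 202449_s_at (0.56) for 9 h against 6 h, and RARA 211605_s_at (-0.33) and RXRG (-0.48) for both times. RARA 211605_s_at also did with the 10th percentile floor (-0.043). Over the arrays left out RXRG at both times ran from -0.092, without the 0 h array of experiment 2, to 0.92. With each array left out, the 9 h against 6 h change ran from -1.45 to 0.18 for RARG 204188_s_at and from -0.067 to 2.44 for RARRES1, both turning without the 9 h array of experiment 1. The RARG 204188_s_at difference between experiments ran from -0.14 to 0.88, turning without either 9 h array. The cause was not tested. The 2 arrays per time, and values near the floor, limit the precision.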
